A study of Homo sapiens with 57 samples.

Results

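The large chromatin regulators described here are 10 transcripts of 9 genes, KMT2A (with 2 transcripts), KMT2C, KMT2D, EP300, CREBBP, SETD2, ARID1A, NSD1 and ASXL1, out of 228715 transcripts listed. They were chosen by transcript identifier, with gene symbols that come with that choice and not from the deposited tables, which list identifiers only. The measurements are 9 messenger RNA libraries of HCT116, a human colorectal carcinoma cell line, in 3 groups of 3. All 9 came from cells that carried Spt5-HA-dhfr and were grown in McCoy's medium with hygromycin, G418, blasticidin and doxycycline, without TMP (trimethoprim, which binds dhfr and protects dhfr degron fusions from destruction). Doxycycline at 2 ug/ml for 24 hours induced an Avi-tagged fragment of Spt5, residues 1 to 820, from the pCW57 vector. The groups differ in the CTR1 region of that fragment, which the labels name WT, TA7 or TE7, and no group without the fragment is analysed here. The labels do not say whether each line is 1 clone, or whether replicates came from separate cultures. The p-values therefore refer to the spread among these libraries, part or all of which may be technical.

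Spt5 binds RNA polymerase II while it transcribes and helps it to elongate; CTR1 is a repeat region near the C-terminal end of Spt5, phosphorylated by the kinase CDK9. Chromatin regulators of the kind measured here write or read marks on histone tails, or move nucleosomes, and so set how accessible promoters and enhancers are. KMT2A, KMT2C and KMT2D methylate histone H3 at lysine K4, SETD2 and NSD1 methylate it at K36, and EP300 and its paralog CREBBP acetylate histones at enhancers and promoters. ARID1A is a DNA-binding subunit of the BAF nucleosome remodelling complex, and ASXL1 is a cofactor of the deubiquitinase BAP1. Several of these genes are recurrently mutated in cancers, colorectal cancer among them.

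The libraries held 64364751 to 90805283 estimated reads. WT replicate 1 had reads on 87229 transcripts, the fewest, against 95401 to 99993 in the others, and the reason was not tested. The 10 transcripts are among the longest listed, from 7052 bases (ASXL1) to 19419 bases (KMT2D), and each was longer than 98.26% to 99.96% of all listed transcripts. In bulk libraries fewer cells of a type and less RNA per cell cannot be told apart, and values for 1 transcript do not show what other transcripts of the same gene did. Of the 10 transcripts, 9 had enough reads to be tested, and the exception was the second KMT2A transcript. Levels within a gene are given in CPM, reads relative to library size after scaling by TMM, and levels between genes in TPM, which also divides by transcript length.

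Promoters are printed for the genes of the 4 transcripts called lower in TE7 than in WT (KMT2A, SETD2, ARID1A and EP300, values below). CREBBP, the paralog of EP300, is added, and its transcript was not called in any comparison. The promoters show the kind of start region these genes share. They were taken by gene symbol and not matched to the starts of the tested transcripts. Each is a 300-base window around a RefSeq start on GRCh38.p14, 5′ to 3′ on the gene's strand, with GC boxes (GGGCGG, or CCGCCC on the other strand) in capitals. The deposited values were made with another build, hg19, so these positions are not those of the read mapping.
KMT2A, chr11:118436242-118436541, + strand: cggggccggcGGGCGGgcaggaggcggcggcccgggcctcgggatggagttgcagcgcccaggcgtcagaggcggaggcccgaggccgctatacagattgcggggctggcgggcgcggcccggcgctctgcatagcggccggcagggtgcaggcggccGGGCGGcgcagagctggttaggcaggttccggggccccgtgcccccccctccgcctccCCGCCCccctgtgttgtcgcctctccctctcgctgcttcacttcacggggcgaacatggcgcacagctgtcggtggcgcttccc
SETD2, chr3:47164064-47164363, - strand: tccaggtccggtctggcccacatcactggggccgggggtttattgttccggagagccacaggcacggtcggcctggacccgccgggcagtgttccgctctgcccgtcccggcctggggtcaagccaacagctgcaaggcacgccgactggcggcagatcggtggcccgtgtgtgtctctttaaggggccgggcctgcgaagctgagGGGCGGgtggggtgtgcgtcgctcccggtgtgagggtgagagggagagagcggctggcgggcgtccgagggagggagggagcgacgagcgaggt
ARID1A, chr1:26695765-26696064, + strand: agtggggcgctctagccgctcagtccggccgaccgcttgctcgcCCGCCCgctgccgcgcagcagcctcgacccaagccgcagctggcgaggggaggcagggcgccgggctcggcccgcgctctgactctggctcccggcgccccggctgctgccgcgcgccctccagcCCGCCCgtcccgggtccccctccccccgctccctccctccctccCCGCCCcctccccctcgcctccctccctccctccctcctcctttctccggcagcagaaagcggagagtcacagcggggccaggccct
EP300, chr22:41092342-41092641, + strand: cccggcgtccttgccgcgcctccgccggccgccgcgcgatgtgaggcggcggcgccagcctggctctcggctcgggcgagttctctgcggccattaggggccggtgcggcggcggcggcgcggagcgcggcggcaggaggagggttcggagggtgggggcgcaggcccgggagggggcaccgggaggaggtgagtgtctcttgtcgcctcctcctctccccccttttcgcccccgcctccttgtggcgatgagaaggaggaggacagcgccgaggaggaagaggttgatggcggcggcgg
CREBBP, chr16:3880664-3880963, - strand: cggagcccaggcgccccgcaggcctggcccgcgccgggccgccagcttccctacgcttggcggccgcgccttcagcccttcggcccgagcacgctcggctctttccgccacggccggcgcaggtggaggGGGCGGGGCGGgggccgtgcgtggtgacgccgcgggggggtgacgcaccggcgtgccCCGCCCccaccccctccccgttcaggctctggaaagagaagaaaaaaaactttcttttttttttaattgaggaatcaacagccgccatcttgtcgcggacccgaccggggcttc
All 9 genes had an entry in the RefSeq table, with 16 windows in all. NSD1, ASXL1 and CREBBP had multiple windows, some of them overlapping, so the 16 are not independent and weight these genes more. The 16 windows had a median GC content of 75.0%, against 58.7% over all 35116 windows, and ranged from 52.3% (an NSD1 start) to 88.7% (KMT2C). A GC box was in 13 of the 16, against 45.0% of all windows, and the letters TATAAA, searched on both strands, were in 0 of the 16, against 11.5% of all. The EP300 window held 0 GC boxes at a GC content of 75.3%, whereas the CREBBP window printed held 3 at 70.3%. GC-rich windows were thus found both in genes whose tested transcript was called lower and in CREBBP. These matches are descriptions of the letters and not of factor binding.

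Among the H3K4 methyltransferases, KMT2A fell furthest in TE7. The main KMT2A transcript (ENST00000534358, 16600 bases) stood at 81.7, 109.5 and 143 CPM in WT replicates 1 to 3, at 84.0, 111 and 119.9 CPM in TA7, and at 39.3, 38.8 and 46.5 CPM in TE7. All 3 TE7 libraries lay below all 6 others, and WT and TA7 overlapped. The fitted log2 change from WT to TE7 was -1.42 ± 0.22 (SE), a level of 0.373 times that of WT (edgeR, adjusted p = 0.00831). Against TA7 it was -1.34 ± 0.22 (adjusted p = 0.0242), and TA7 differed from WT by -0.08 ± 0.21 (adjusted p = 1).

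KMT2D and KMT2C encode the catalytic subunits of the complexes that methylate H3K4 at enhancers, and neither passed the threshold. The KMT2D transcript (ENST00000301067) was at 153, 189.9 and 246 CPM in WT, at 160.1, 209 and 209 CPM in TA7, and at 131, 137 and 149.5 CPM in TE7. The TE7 libraries were all below the WT and TA7 libraries, by a fitted log2 difference of -0.50 ± 0.18 from WT (adjusted p = 0.128). The size depended on the WT libraries: without WT replicate 1, the lowest, the log2 change was -0.64 (adjusted p = 0.0398), and without WT replicate 3, the highest, it was -0.30 (adjusted p = 0.315). The alternatives together gave adjusted p of 0.0223 to 0.473.

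KMT2C (ENST00000262189, 16860 bases) was the least abundant transcript tested. It had 10.8, 11.7 and 13.4 CPM in WT, 6.78, 12.5 and 9.59 CPM in TA7, and 3.67, 6.86 and 6.46 CPM in TE7. TE7 lay below WT without overlap but overlapped TA7, with a log2 change from WT of -1.08 ± 0.29 (adjusted p = 0.0593). DESeq2 gave an adjusted p of 0.00445 for the same change, and the alternatives ranged from that value to 0.26. Parts of KMT2C have near-identical copies elsewhere in the genome, so its estimated reads are uncertain.

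**Figure D1:**
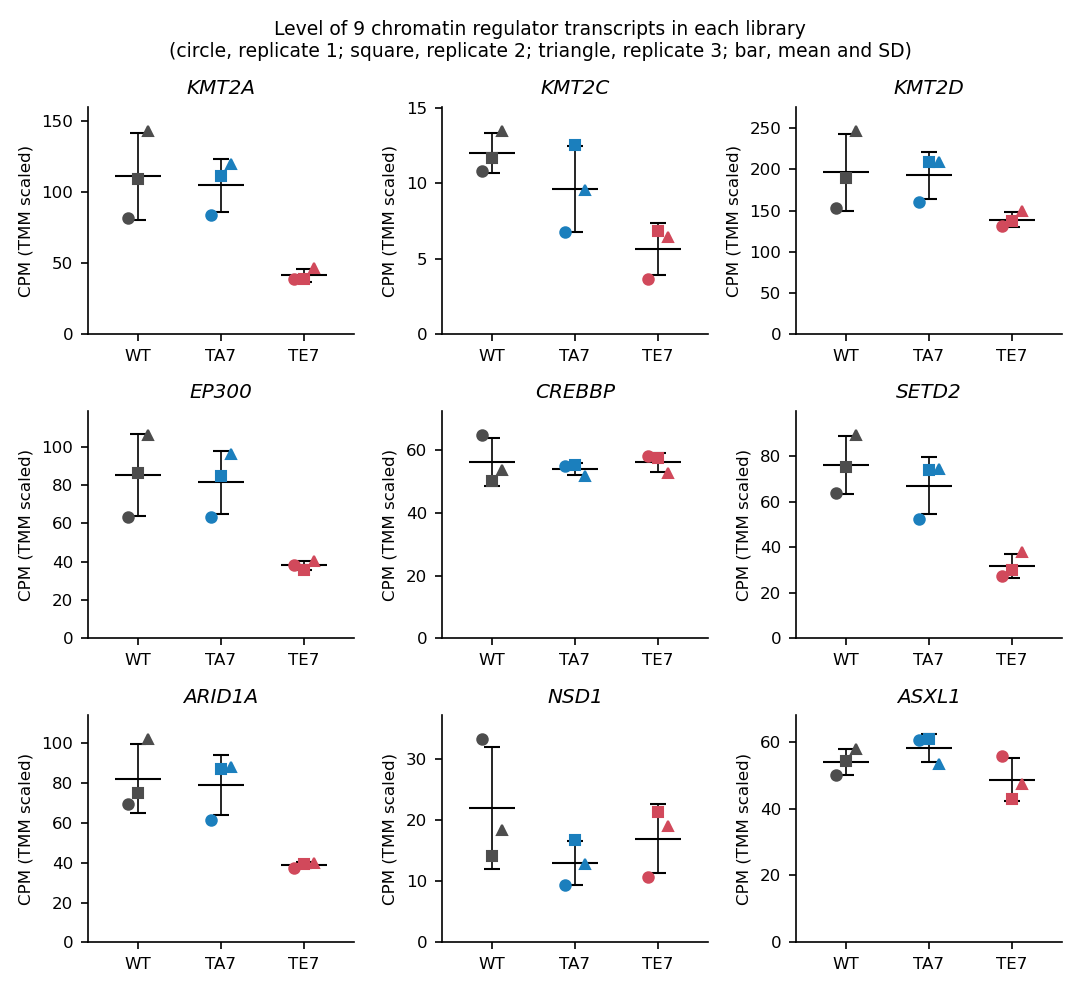
Level of the 9 tested transcripts in each library, in TMM-scaled CPM on axes that start at 0, by group (WT, TA7, TE7; 3 libraries each); horizontal bars are means and whiskers 1 SD. The 3 TE7 points lie below every other point for KMT2A, KMT2D, EP300, SETD2 and ARID1A, while the groups overlap for CREBBP, NSD1 and ASXL1.

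EP300 and CREBBP encode closely related acetyltransferases, and of the pair EP300 was called lower in TE7 and CREBBP was not. EP300 (ENST00000263253, 8779 bases) was at 63.6, 86.0 and 105.9 CPM in WT, at 63.5, 84.8 and 96.0 CPM in TA7, and at 38.1, 35.6 and 40.5 CPM in TE7. TE7 lay below both other groups without overlap, and replicate 1 was the lowest library in WT and in TA7. The log2 change from WT to TE7 was -1.16 ± 0.21 (SE; edgeR, adjusted p = 0.0147), and from TA7 to TE7 -1.10 ± 0.21 (adjusted p = 0.0371). The call against WT was lost when WT replicate 2, TE7 replicate 1, TE7 replicate 2 or TE7 replicate 3 was left out: the adjusted p was then, in that order, 0.0514, 0.0583, 0.0663 and 0.0507, with log2 changes of -1.15, -1.15, -1.10 and -1.20. The alternatives together gave adjusted p of 1.29e-06 to 0.0663.

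CREBBP (ENST00000262367, 10790 bases) was at 64.6, 49.9 and 53.7 CPM in WT, at 54.8, 55.1 and 51.7 CPM in TA7, and at 58.0, 57.5 and 52.6 CPM in TE7. The groups overlapped, and the fitted log2 change from WT to TE7 had a 95% interval of -0.23 to 0.22 (adjusted p = 0.998). That interval does not include the change of EP300.

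Within each library, the ratio of EP300 reads to CREBBP reads was 0.983, 1.72 and 1.97 in WT, 1.16, 1.54 and 1.86 in TA7, and 0.657, 0.619 and 0.768 in TE7. EP300 had the fewer reads of the pair in every TE7 library and, of the other 6, in WT replicate 1. The ratio was 0.682 ± 0.0777 (SD, n = 3) in TE7 and 1.56 ± 0.514 (SD, n = 3) in WT, with an exact two-sided permutation p of 0.1 (0.15 adjusted over the 3 comparisons), the smallest that 3 against 3 libraries can give. TE7 against TA7 gave the same exact p, and TA7 against WT gave 0.9. This ratio was chosen after the values were seen.

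**Figure D2:**
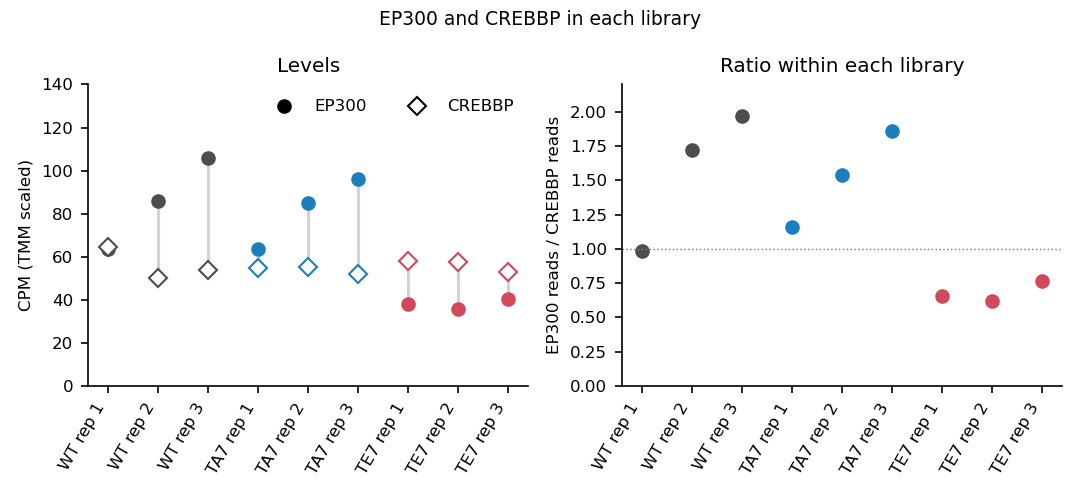
Left, TMM-scaled CPM of EP300 (filled circles) and CREBBP (open diamonds) in each of the 9 libraries; right, EP300 reads divided by CREBBP reads in each library, with a dotted line at 1. Reads are not divided by transcript length, so the dotted line does not mark an equal level. The TE7 libraries have ratios of 0.619 to 0.768, below the lowest other value of 0.983 in WT replicate 1.

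Of the H3K36 methyltransferases, SETD2 fell and NSD1 did not pass the test. SETD2, which adds the third methyl group at K36 and binds elongating polymerase, was measured by ENST00000409792 (8142 bases). It stood at 64.0, 75.1 and 89.1 CPM in WT, at 52.5, 74.0 and 74.5 CPM in TA7, and at 27.3, 30.1 and 37.9 CPM in TE7. No TE7 library reached the lowest library of another group. The log2 change from WT was -1.26 ± 0.19 (SE), a level of 0.418 times that of WT (edgeR, adjusted p = 0.00815), and from TA7 -1.08 ± 0.19 (adjusted p = 0.0306).

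NSD1 (ENST00000439151, 12892 bases) adds the first 2 methyl groups at K36. Its transcript varied more between replicates than any other tested in WT, with 33.2, 14.2 and 18.4 CPM, a coefficient of variation of 45.6%. It had 9.43, 16.7 and 12.9 CPM in TA7 and 10.7, 21.3 and 19.0 CPM in TE7, so all groups overlapped. The log2 change from WT to TE7 was -0.37 ± 0.38 (adjusted p = 0.63), and without WT replicate 1, the highest library, it was 0.06.

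ARID1A (ENST00000324856, 8595 bases) was at 69.6, 75.2 and 101.9 CPM in WT, at 61.6, 86.9 and 88.2 CPM in TA7, and at 37.2, 39.2 and 40.1 CPM in TE7. TE7 was below both groups without overlap, and its libraries differed little, with a coefficient of variation of 3.75%. The log2 change from WT was -1.08 ± 0.18 (SE; edgeR, adjusted p = 0.0113), and from TA7 -1.02 ± 0.18 (adjusted p = 0.0296). Without TE7 replicate 1 the change from WT had an adjusted p of 0.0511, and without TE7 replicate 2 one that also missed the threshold, with log2 changes of -1.04 and -1.07. The alternatives together gave adjusted p of 2.37e-07 to 0.0511.

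ASXL1 (ENST00000375687), the shortest of the transcripts, was at 50.1, 54.1 and 57.8 CPM in WT, at 60.4, 60.7 and 53.3 CPM in TA7, and at 55.7, 42.9 and 47.4 CPM in TE7. All groups overlapped. Its log2 change from WT to TE7 had a 95% interval of -0.40 to 0.10 (adjusted p = 0.449).

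Over the 9 tested transcripts, 4 were called lower in TE7 than in WT and 0 higher, with a median log2 change of -1.08 and 6 at an unadjusted p under 0.05. Over all 78478 transcripts tested, 4.81% were called lower and the median change was -0.02. An unadjusted p under 0.05 by edgeR, in either direction, was found for 19817 of them. Long transcripts as a class were lower in TE7: among the 1554 of 7052 to 19419 bases with a mean of at least 5 CPM, which include the 9, 33.5% were called lower and the median was -0.39. DESeq2 called 6 of the 9 lower (KMT2C and KMT2D besides the 4), but also 10.6% of all transcripts and 47.6% of the long class. The 4 of 9 is thus to be read against the 33.5% as well as the 4.81%. The transcripts were chosen with earlier results of these data known, so such counts beside background shares are descriptions only. In 6 of the 9, all TE7 libraries lay below all WT libraries, as in 16.1% of all transcripts tested and 52.4% of the long class.

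**Figure D3:**
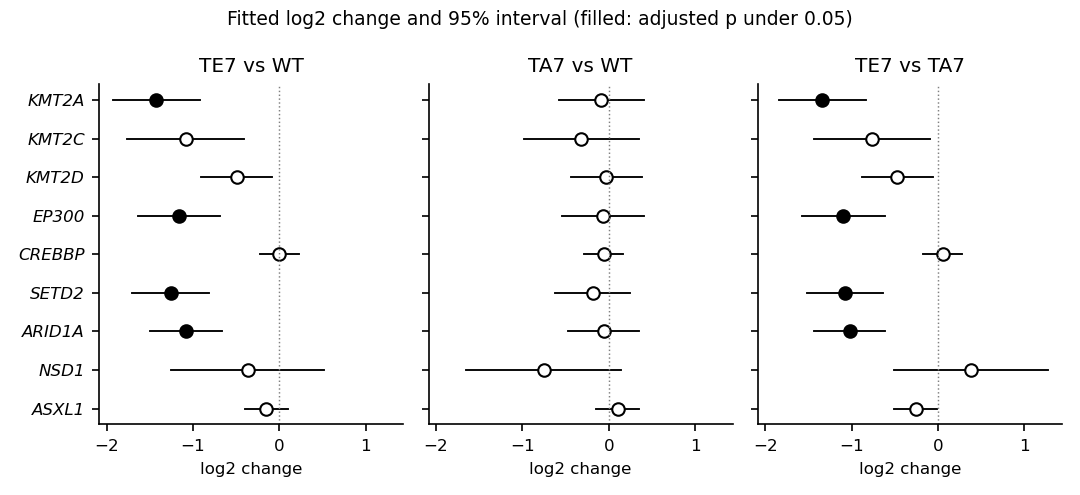
Fitted log2 change (circles) with its 95% interval (lines) for the 9 tested transcripts in the 3 comparisons; filled circles have an adjusted p under 0.05. KMT2A, EP300, SETD2 and ARID1A are filled in both comparisons of TE7, and no circle is filled for TA7 against WT.

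TA7 was compared with the same WT libraries, so the comparisons with WT share their controls. For TA7 against WT, edgeR and DESeq2 each called 0 of the 9 transcripts, with 0 at an unadjusted p under 0.05 by either. The fitted log2 changes ranged from -0.75 ± 0.39 (NSD1, adjusted p = 0.722) to 0.11 ± 0.11 (ASXL1, adjusted p = 0.979), with a median of -0.065. The NSD1 value depended on WT replicate 1, without which it was -0.31, and without both WT replicate 1 and TA7 replicate 1 it was -0.13. Over all transcripts edgeR called 0.0612% in either direction and DESeq2 2.83%, so 0 of 9 is near the background of both. An unadjusted p under 0.05 was found for 6065 of 78478 transcripts by edgeR and for 8161 by DESeq2. No transcript of the 9 had TA7 libraries all below the WT libraries, as 6.61% of all tested did. The intervals were wide for some: that of KMT2A ran from -0.57 to 0.41, and that of NSD1 from -1.65 to 0.14.

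For TE7 against TA7, the same 4 transcripts (KMT2A, EP300, SETD2 and ARID1A) were called lower, against 1.78% of all tested and 18.0% of the long class. In 5 of the 9, those 4 and KMT2D, the TE7 libraries lay below all TA7 libraries, as in 15.6% of all tested and 59.6% of the long class. These calls were less stable. By edgeR 0 remained without TA7 replicate 2, TA7 replicate 3 or any 1 of the TE7 replicates. Without WT replicate 2, 1 remained (KMT2A). Lower calls over all transcripts fell in those fits too, from 1400 of 78478 to between 184 of 84202 and 690 of 84425. In those fits 4 to 6 of the 9 still had an unadjusted p under 0.05. Over all transcripts 11291 of 84202 to 14866 of 84425 had one, in either direction. The fitted changes of the 4 stayed between -0.94 and -1.48 when any 1 library was left out.

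Because long transcripts as a class were lower in TE7, each library's trend of level on transcript length was also removed before the fit. KMT2A then had a log2 change from WT to TE7 of -0.85 (edgeR, adjusted p = 0.00647), SETD2 of -0.91 (0.0117), EP300 of -0.78 (0.0202) and ARID1A of -0.71 (0.0163), so all 4 stayed called, at smaller size, against 5.18% of all transcripts and 15.7% of the long class called lower in that fit. From TA7 to TE7 it left 2 called, KMT2A at -0.79 (adjusted p = 0.0218) and ARID1A at -0.66 (0.0468), against 1.49% of all and 4.70% of the long class. SETD2 and EP300, both at -0.73, missed the threshold there (0.0548 and 0.0545). From WT to TE7, KMT2C moved to -0.53 (adjusted p = 0.26), and KMT2D, CREBBP, NSD1 and ASXL1 changed sign, to 0.11, 0.41, 0.06 and 0.14, with none called. The 9 lie near the upper end of the lengths, and whether the trend removes too much or too little there was not tested. Within the 9, log2 length and change had a Pearson r of -0.10 over transcripts that share the same libraries. All 9 are among the longest transcripts listed, so this r does not describe the trend over all lengths. SETD2, at 8142 bases, fell nearly as far as KMT2A, at 16600 bases, while KMT2D, the longest, was among the smaller changes. What the length trend reflects was not tested.

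**Figure D4:**
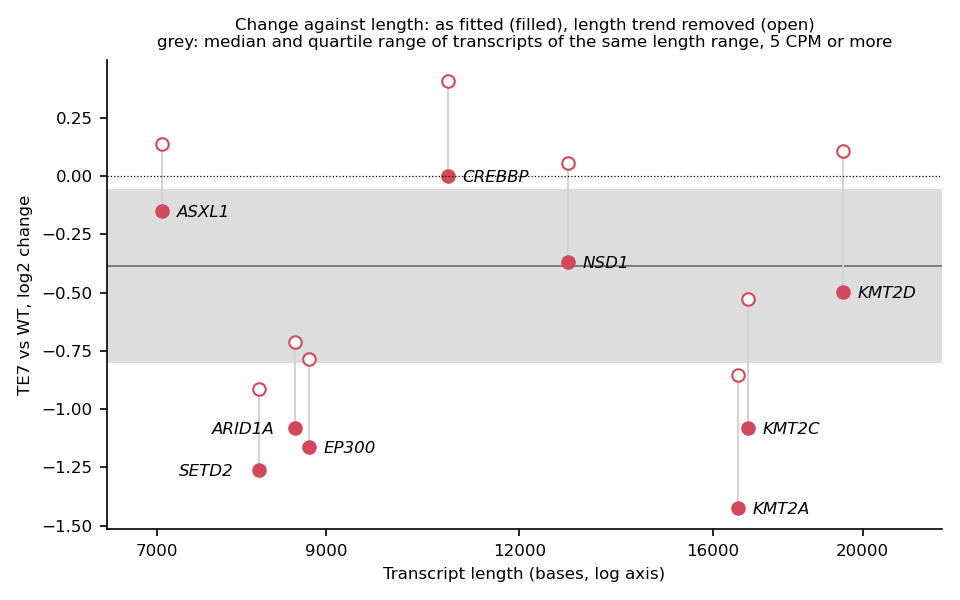
Log2 change from WT to TE7 against transcript length (log axis) for the 9 tested transcripts, as fitted (filled) and after removal of each library's length trend (open), joined by a line. The grey line and band are the median (-0.39) and the lower to upper quartile (-0.80 to -0.06) of the fitted changes of 1554 transcripts of the same length range with at least 5 CPM; KMT2A, SETD2, EP300, ARID1A and KMT2C lie below the band as fitted.

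The second KMT2A transcript (ENST00000389506, 13678 bases) was nearly absent. It had 137.7 estimated reads in WT replicate 1, 40.8 in TE7 replicate 1, 9.3 in TE7 replicate 2 and 0 in the other 6 libraries. These are 2.74%, 1.52% and 0.343% of the reads of the KMT2A pair, and a count of 0 allows a share of up to 0.0289% to 0.088%, for counting error only. The exact two-sided permutation p of its share was 1 for TE7 against WT, 1 for TA7 against WT and 0.4 for TE7 against TA7. A test of 3 against 3 libraries cannot go below 0.1, so these say nothing of whether the share depends on the group. Summing the pair left the KMT2A change from WT to TE7 at -1.42 (edgeR, adjusted p = 0.00728).

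Per length, the levels in WT were ordered as follows. SETD2 (12.3 TPM, mean of 3), EP300 (11.9), KMT2D (11.2), ARID1A (11.1), ASXL1 (8.99), KMT2A (8.31) and CREBBP (6.13) followed each other with overlapping libraries at each step. NSD1 (1.98 TPM), KMT2C (0.892 TPM) and the second KMT2A transcript (0.0603 TPM) then followed, each without overlap with the one above it. In TE7 the mean was 7.90 TPM for ASXL1, 7.64 for KMT2D and 6.01 for CREBBP, which all stood above ARID1A (5.12), EP300 (5.09), SETD2 (4.77) and KMT2A (2.95). This order is of means: the lowest CREBBP library in TE7 (5.73 TPM) was below the highest SETD2 library in TE7 (5.81 TPM). By mean, the 3 transcripts at the top in TE7 are thus ones that were not called lower, an order that the calls themselves favour.

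Across the 9 libraries the levels of KMT2A and EP300 were the most alike, with a Pearson r of 0.995 of log2(CPM + 1). The 6 pairs among KMT2A, EP300, SETD2 and ARID1A had r of 0.974 to 0.995, which the choice of 4 transcripts called in the same direction favours. Once each group's mean was removed these pairs had r of 0.86 to 0.98, and KMT2D, which was not called, had r of 0.985 with KMT2A, 0.954 with EP300, 0.949 with ARID1A and 0.907 with SETD2. KMT2D was most like EP300 (0.938), KMT2C most like SETD2 (0.915) and ASXL1 most like KMT2A (0.625). CREBBP and NSD1 were most like the second KMT2A transcript (0.882 and 0.568), whose level is above 0 in 3 libraries only. These values describe 9 libraries that fall into groups and share scaling. KMT2A, EP300 and KMT2D had their lowest WT value and their lowest TA7 value in replicate 1, as did SETD2 and ARID1A, so part of the likeness lies within groups.

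Together the 10 transcripts held 0.0692% ± 0.0156 (SD, n = 3) of the reads in WT, 0.0677% ± 0.00998 in TA7 and 0.0409% ± 0.00241 in TE7. The TE7 libraries, at 0.0394% to 0.0437%, lay below the lowest WT library, replicate 1, at 0.0544%. No test was made on this sum, since its members were chosen.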

How the data were processed

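The 9 messenger RNA libraries were analysed here, of 57 samples in the series; the other 48, of other assays, are not used here. Per the labels' protocols, RNA was extracted with Trizol, selected with oligo-dT and 1 ug entered a Tecan/Nugen kit. Per the submitters' processing notes, cutadapt 2.3 and Salmon 1.3.0 were used, with build hg19. The transcript set: not given in the sources used here. The tables deposited by the authors give estimated counts per transcript, which divide shared reads among transcripts and are not normalized. In the authors' tables TPM divides by effective length and brings each library to a common total. Lengths and effective lengths are in the same tables, per the file headers.

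Estimated counts were rounded. Transcripts were kept by the default filter of edgeR 4.0.16, which left 78478, and libraries were scaled with TMM. The 9 libraries entered 1 quasi-likelihood fit (glmQLFit, glmQLFTest) on group alone, with Benjamini-Hochberg adjustment over all transcripts tested and a threshold of 0.05. The standard error is the change divided by the square root of its F value. The procedure was tested on simulated data. Ratios and shares were compared with exact permutation tests. The 22 alternatives covered DESeq2 1.42.0, limma 3.58.1 on log2(TPM + 1) and log2(TPM + 0.1), other scalings and filters, a replicate block, length corrections (a lowess trend with span 0.3, from transcripts of at least 5 CPM) and left-out libraries. All 10 transcripts were named, and likeness was the highest Pearson r with another of them. The transcripts and lists were chosen with earlier results of these data known. These transcript identifiers were in 0 rows of the gene tables, so wider pathway lists, cell type markers and the Spt5 gene were not analysed here. Sequencing reads are not independent molecules.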

Additional observations from a re-analysis of the deposited data

How the results depend on the processing

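The count of transcripts called lower in TE7 than in WT was 4 and stayed at 4 or 5 in the alternatives that kept all libraries, except DESeq2, which called 6 and also a larger share of all transcripts (10.6% lower, against 4.81% by edgeR). Leaving out 1 library gave 2 to 5, with 2 without TE7 replicate 1 or TE7 replicate 2. Without these, lower calls over all transcripts were 1785 of 84603 and 1621 of 84425, against 3775 of 78478 with all libraries. SETD2 was called in 22 of 22 alternatives, KMT2A in 21 of 21, ARID1A in 20 of 22 and EP300 in 18 of 22. For TE7 against TA7 the count of 4 became 2 with the length trend removed (SETD2 and EP300 had adjusted p of 0.0548 and 0.0545 by edgeR). It became 0 to 4 when 1 library was left out, where lower calls over all transcripts ran from 184 of 84202 to 2387 of 84939. Without both WT replicate 1 and TA7 replicate 1 the counts were 5 for TE7 against WT and 5 for TE7 against TA7, each with KMT2D added (adjusted p = 0.0223 and 0.0441 by edgeR). Lower calls over all transcripts rose there too, to 4514 and 2474 of 83377, from 3775 and 1400 of 78478 in the main fit. The cause of these moves was not tested. For TA7 against WT all alternatives called 0. Values that were not called changed sign in some settings: CREBBP from WT to TE7 in 10 of 22, NSD1 in 3, KMT2D and ASXL1 in 1 each.

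Same-numbered libraries of different groups had correlations of -0.03 to 0.15 in their deviations, and differently numbered ones of -0.146 to 0.07. The highest, 0.15, was between WT replicate 1 and TA7 replicate 1. The labels do not say that a number marks a shared culture or day, so the numbers were not taken as pairs. With a replicate block the counts were 5 for TE7 against WT (KMT2C added, adjusted p = 0.0309 by edgeR), 0 for TA7 against WT and 4 for TE7 against TA7, and the difference in the share of the second KMT2A transcript was -0.293 percentage points with the replicate block, as without it. Leaving out 1 library moved that difference between -0.75 and 0.62. The combined share of the transcripts differed by -0.0283 percentage points of reads between TE7 and WT and by -0.00314 of TPM, which is on another scale since TPM divides by length; leaving out 1 library gave -0.0356 to -0.0201 of reads.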
